A study of Cicer arietinum with 8 samples.

Results

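Unstressed root was set against unstressed shoot of 10-day-old chickpea seedlings, gene model by gene model. The compared set holds 16647 of the 27248 loci that carry an annotated gene ID, among 34193 loci in each file. A gene model entered when its FPKM (fragments scaled by exon length and by the library's mapped fragments) was at least 1 in the root control or in the shoot control. Of the remaining annotated loci, 10601 stayed under 1 FPKM in both organs, and 8485 of these were listed at 0 in both.

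The series sequenced mRNA from root and shoot of 10-day-old seedlings of Cicer arietinum, genotype ICC4958, raised in a culture room. The Root-Control and Shoot-Control libraries come from seedlings left in water for 5 h. The other 6 libraries come from root and shoot after 5 h on folded tissue paper (desiccation), in 150 mM NaCl (salinity) or in water at 4 °C (cold). There is 1 library for each organ and treatment, 8 in all, so the root control and the shoot control have no replicate. The labels do not say whether root and shoot were taken from the same plants or how many plants went into a library. The question put to these libraries here is which gene models set the organs apart before any stress, and whether the same differences stand in the stressed organs.

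Roots take up water and mineral ions and anchor the plant, and legume roots also host nitrogen-fixing bacteria in nodules. Shoots carry the green tissue, where chloroplasts fix carbon, and nuclear genes for the photosynthetic apparatus are among the most abundant messages of a leaf. Most genes of the basic cell machinery are used in both organs, so organ identity rests on a part of the transcriptome. None of these roles can be tied to single gene models here, because the files give locus IDs alone and 0 of the 27571 annotated IDs matched the RefSeq gene table of the chickpea assembly Cicar.CDCFrontier_v2.0. The organ labels could therefore not be checked against marker genes, and no coordinates or sequences are given.

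Root and shoot used largely the same gene models. At least 1 FPKM was reached by 15437 gene models in the root control and by 15606 in the shoot control, and 14396 members (86.5%) reached it in both. Only the root control reached it at 1041 members and only the shoot control at 1210. The median member stood at 12.1 FPKM in root and 12.5 FPKM in shoot. The median difference of root minus shoot, on the log2(FPKM + 1) scale used for all differences below, was -0.02. Over the 14396 members at 1 FPKM in both organs, the median ratio of root to shoot FPKM was 0.995. At the limit of entry, the 111 members whose higher control value lay between 1 and 1.1 FPKM had a median absolute difference of 0.54, and the 100 gene models left out at 0.9 to 1 FPKM had one of 0.69.

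The differences were many and evenly split. At least 2-fold higher in root control were 3251 members (19.5%), and at least 2-fold higher in shoot control were 3250 (19.5%). Another 10146 (60.9%) lay within 2-fold of each other, and 3379 (20.3%) within 1.2-fold. The median absolute difference was 0.74, and 90% of the members lay between -2.84 and 2.70. Among the members called higher, 201 of the root set were listed at 0 in the shoot control and 190 of the shoot set were listed at 0 in the root control. With 1 library on each side these counts have no replicate check and no p-value. In tissue RNA, fewer cells of a type and less RNA per cell cannot be told apart.

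The large differences leaned to the shoot. At 4-fold the counts were 1396 in root (8.39%) and 1426 in shoot (8.57%), at 16-fold they were 322 (1.93%) and 389 (2.34%), and at 64-fold they were 59 (0.354%) and 113 (0.679%). At 16-fold a pseudocount of 0.1 gave 686 in root and 701 in shoot, and a pseudocount of 5 gave 109 and 174. The surplus at 64-fold kept its direction with a pseudocount of 0.1 (224 in root, 294 in shoot), with a pseudocount of 5 (12 and 49), after rescaling every library to the same sum over gene models (78 and 143) and after quantile normalization (58 and 110). It was also present in each stressed pair of organs, which shares no library with the controls. Under desiccation 99 gene models (0.595%) were at least 64-fold higher in root and 135 (0.811%) in shoot. Under salinity the counts were 73 (0.439%) and 115 (0.691%), and under cold 73 (0.439%) and 154 (0.925%). At 16-fold the direction turned under desiccation, with 448 in root and 436 in shoot.

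**Figure D1:**
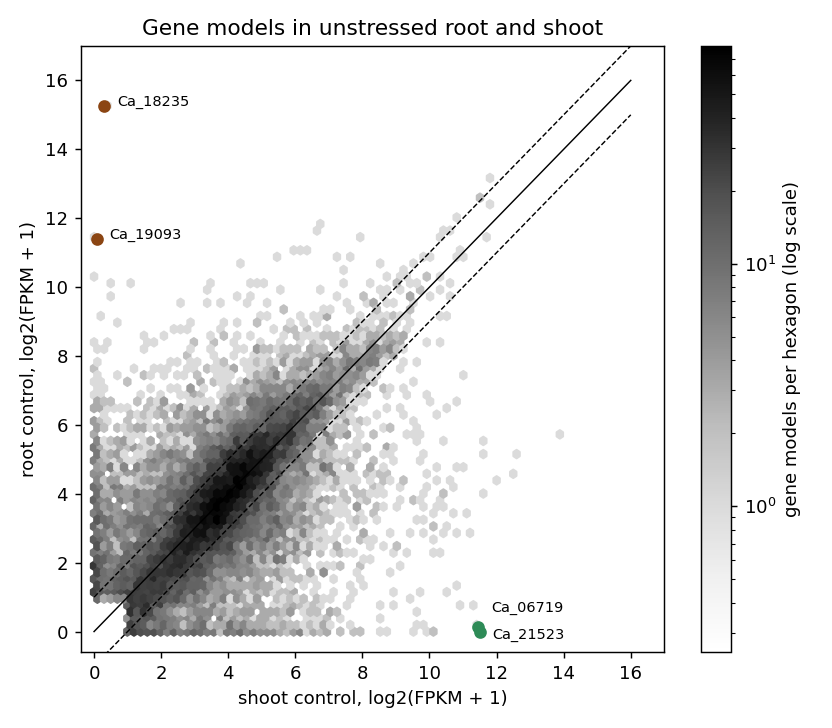
Root control (vertical axis) against shoot control (horizontal axis) for the 16647 gene models, both as log2(FPKM + 1), with darker hexagons holding more gene models. The solid line marks equal values and the dashed lines a 2-fold difference; the 4 coloured points are the named gene models farthest from the line in each direction, Ca_18235 and Ca_19093 in root and Ca_21523 and Ca_06719 in shoot.

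**Figure D2:**
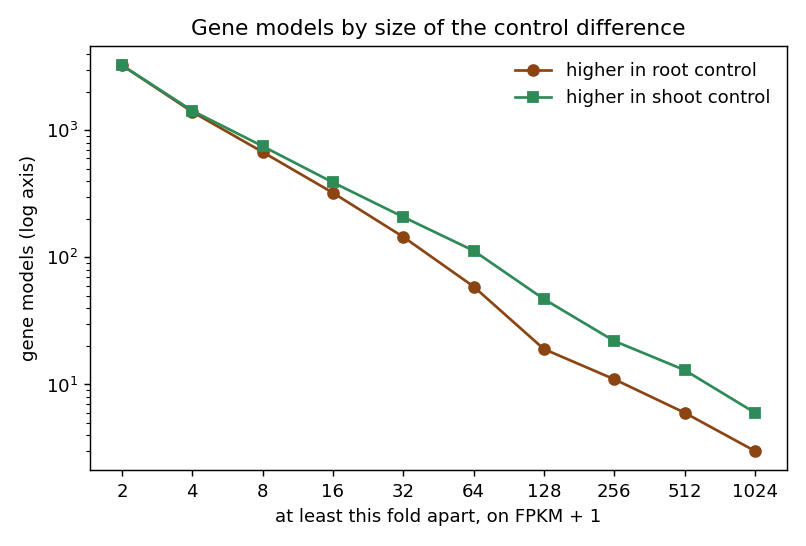
Number of gene models (vertical log axis) that differ between the control libraries by at least the fold on the horizontal axis. Circles are gene models higher in root and squares those higher in shoot; the curves start together at 3251 and 3250 and part to 59 and 113 at 64-fold.

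The level of a gene model was related to the size and the side of its difference. Of the 866 members whose higher control value lay between 1 and 2 FPKM, 11.1% were at least 2-fold higher in root and 12.8% in shoot. Between 100 and 500 FPKM, with 1389 members, the shares were 32.2% in root and 23.5% in shoot. Above 500 FPKM, with 226 members, they were 35.0% in root and 42.5% in shoot. Members between 50 and 500 FPKM were thus more often higher in root, and those under 10 FPKM and those above 500 FPKM more often higher in shoot. The log2(FPKM + 1) scale compresses differences of weakly expressed gene models, so the low shares near 1 FPKM are in part set by the scale.

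The most abundant messages differed most between the organs. The 100 highest gene models of the root control and the 100 highest of the shoot control had 27 in common, which is 27.0% of each list. Of the root list, 68 were at least 2-fold higher in root and 0 were at least 2-fold higher in shoot. Their median was 1045 FPKM in root and 323 FPKM in shoot. Of the shoot list, 73 were at least 2-fold higher in shoot and 8 were at least 2-fold higher in root. Their median was 1219 FPKM in shoot and 27.6 FPKM in root, so the abundant shoot messages were far scarcer in root than the abundant root messages were in shoot. Each list was picked for its level in 1 organ, which by itself favours a difference in that direction. The stressed libraries, which did not enter the choice, gave a limma difference (a linear model fitted to all loci, adjusted p under 0.05) in the same direction for 71 of the shoot list and for 38 of the root list, where limma called 14.9% of all 16647 gene models higher in shoot and 14.1% higher in root.

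The 10 highest gene models held more of the root control than of any other library. The highest gene model, Ca_18235, made up 5.85% of the summed FPKM of all annotated gene models in the root control, and the 10 highest made up 12.5%. In the shoot control the highest made up 2.32% and the 10 highest 7.77%. In the stressed roots the highest gene model took 1.40% to 2.69%, and the 10 highest took 6.74% to 8.79%. In the stressed shoots the 10 highest took 11.6% under desiccation, 8.52% under salinity and 8.54% under cold. The 100 highest took 27.6% in the root control, 25.6% in the shoot control and 31.6% in desiccated shoot. The number of gene models that together held 50% of the annotated sum was 665 in root control and 644 in shoot control. It was 782 to 921 in the stressed roots and 517 to 705 in the stressed shoots, so the root control lay below every stressed root.

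Ca_18235 had the largest difference of all members. The root libraries read 39384 FPKM in control, 18685 FPKM in desiccation, 8675 FPKM in salinity and 12930 FPKM in cold. The shoot libraries read 0.238, 0.993, 2.07 and 0.661 FPKM in the same order. Root and shoot values did not overlap in any treatment, the root control was the highest root library, and the shoot control was the lowest shoot library. The control difference was 14.96, and the mean difference over the stressed pairs was 12.53 (SE 0.43). No p is given for this and the next 3 gene models, because a like direction in the stressed pairs was part of their choice. They were also picked for a large control difference, which by itself favours an extreme control value. Ca_19093 was likewise high in every root library, and highest in the root control, at a lower level. Its root values were 2674 FPKM in control, 789 FPKM in desiccation, 262 FPKM in salinity and 786 FPKM in cold. In shoot it had 0.0622, 0.326 and 0.374 FPKM in control, desiccation and salinity and was listed at 0 under cold. Its control difference was 11.30. The differences were 9.22 under desiccation and 7.58 under salinity, and none is given for cold because of the 0.

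The 2 named shoot gene models varied less among treatments than the 2 named root gene models. Shoot values of Ca_21523 were 2894 FPKM in control, 2115 FPKM in desiccation, 3157 FPKM in salinity and 4301 FPKM in cold. Its root values in 2 libraries (control and salinity) were listed at 0, and the others were 0.813 FPKM (desiccation) and 0.302 FPKM (cold). No fold is given for control and salinity because of the 0. The differences were -10.19 under desiccation and -11.69 under cold. Ca_06719 stood at 2817, 2610, 3246 and 3377 FPKM in shoot in control, desiccation, salinity and cold. In root it stood at 0.104 FPKM in the control and was listed at 0 in the 3 stressed libraries. Its control difference was -11.32, and none is given under stress because of the 0 in root. The shoot control thus lay inside the range of the stressed shoots for both gene models, whereas the root control lay above every stressed root for Ca_18235 and Ca_19093. Since all were picked for their control difference, these positions describe the named gene models alone.

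**Figure D3:**
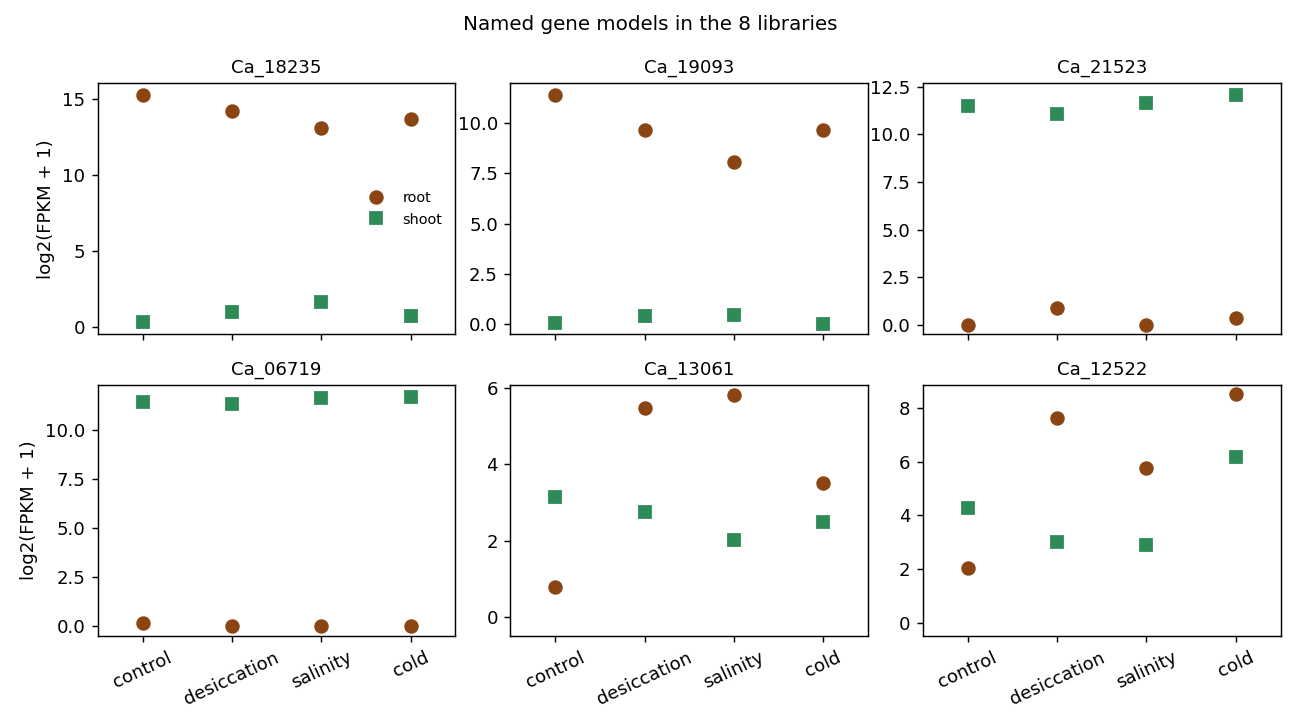
Level of 6 named gene models as log2(FPKM + 1) (vertical axis, scaled per panel) in root (circles) and shoot (squares) for each treatment, 1 library per point. Ca_18235 and Ca_19093 are high in root, Ca_21523 and Ca_06719 in shoot, and Ca_13061 and Ca_12522 are higher in shoot in the control and higher in root in the 3 stressed pairs.

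Some gene models were expressed in 1 organ and nearly silent in the other. At 5 FPKM or more in root and under 1 FPKM in shoot were 493 members (2.96%), which is 4.12% of the 11967 that reached 5 FPKM in the root control. The shoot counterpart held 469 members (2.82%), or 3.79% of the 12362 that reached 5 FPKM in the shoot control. The root set had a median of 14.1 FPKM in root, with 27 members at 100 FPKM or more, and 103 were listed at 0 in the shoot control. The shoot set had a median of 16.3 FPKM in shoot, with 48 members at 100 FPKM or more, and 95 were listed at 0 in the root control. A limit of 0.5 FPKM in place of 1 for the silent organ left 350 in root and 309 in shoot.

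Part of each set passed a limit under stress, in the silent organ and in the expressing organ. Of the root set, 318 (64.5%) stayed under 1 FPKM in all 3 stressed shoots, and of the shoot set 303 (64.6%) stayed under 1 FPKM in all 3 stressed roots. In single stressed shoots, 91 of the root set reached 1 FPKM under desiccation, 133 under salinity and 78 under cold, and 88, 115 and 86 of the shoot set did so in the matching roots. Fewer reached 5 FPKM. In the root set 15 did so in desiccated shoot, 8 in salt-stressed shoot and 1 in cold shoot, and in the shoot set 14, 21 and 6 did so in the matching roots. In their own organ, 161 of the root set were below 5 FPKM under salinity, 109 under cold and 82 under desiccation. Of the shoot set, 119 were below 5 FPKM under desiccation, 102 under salinity and 39 under cold. Members near 5 FPKM or 1 FPKM in the control can pass a limit by counting error alone. The limma fit to the stressed libraries called 431 (87.4%) of the root set higher in root and 430 (91.7%) of the shoot set higher in shoot, where it called 14.1% and 14.9% of all 16647 gene models.

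The stressed pairs give a measure of the organ difference that uses neither control library. For the same 16647 gene models, desiccated root and shoot had 3341 members at least 2-fold higher in root (20.1%) and 2999 higher in shoot (18%). The salt-stressed pair had 3155 (19%) and 3032 (18.2%), and the cold pair had 3057 (18.4%) and 2964 (17.8%). Of the 3251 members higher in root control, 2232 (68.7%) were at least 2-fold higher in root under cold, 2016 (62.0%) under desiccation and 1999 (61.5%) under salinity. Of the 3250 members higher in shoot control, 2365 (72.8%) were at least 2-fold higher in shoot under cold, 2168 (66.7%) under salinity and 2050 (63.1%) under desiccation. Opposite calls were fewest under cold. Members higher in root control and at least 2-fold higher in shoot numbered 45 under cold, 55 under salinity and 120 under desiccation, and the reverse numbered 23, 66 and 147.

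Across the 16647 gene models, which are not independent replicates, the control difference had a Pearson's r of 0.880 with the cold difference, 0.810 with the salinity difference and 0.788 with the desiccation difference. Spearman's rho was 0.803, 0.709 and 0.634 in the same order. These values describe pairs of single libraries and carry no test. The cold pair was thus the one closest to the control pair and the desiccated pair the one farthest from it, by the share of members found again in shoot, by the opposite calls and by the correlation. Salinity and desiccation were nearly level in the share found again in root.

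A limma fit over the 6 stressed libraries, with treatment as a term beside organ, tested the organ difference. It covered all 22279 loci with at least 1 FPKM in either control library, a filter that uses no library of the fit. Root was higher at 3020 of these (13.6%) and shoot at 3661 (16.4%), at an adjusted p under 0.05. Among the 16647 gene models root was higher at 2354 (14.1%) and shoot at 2476 (14.9%), and 6447 had an unadjusted p under 0.05. The median SE of the organ difference was 0.31. Without the cold libraries the counts for gene models were 1387 and 1634, and they were 1595 and 1952 without the desiccation libraries. With the treatment term in the fit, the p-values weigh the mean organ difference against its variation from treatment to treatment. That variation was moderated toward a trend over all loci, with 4.02 prior against 2 residual degrees of freedom. Variation between libraries of the same treatment cannot be told apart from variation between treatments, since no treatment was sequenced more than once in an organ.

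Most gene models called in the stressed libraries had the same direction in the controls. Of the 2354 higher in root, 2281 (96.9%) were higher in root control and 1885 (80.1%) at least 2-fold so, with a median control difference of 1.88. Of the 2476 higher in shoot, 2393 (96.6%) were higher in shoot control and 2091 (84.5%) at least 2-fold so, with a median control difference of -2.11. At least 2-fold in the opposite direction in the controls were 10 of the root calls and 21 of the shoot calls. Read from the controls, the fit called 1885 (58.0%) of the 3251 members higher in root and 2091 (64.3%) of the 3250 higher in shoot in the same direction. Among the 10146 members within 2-fold in the controls it called 459 higher in root and 364 higher in shoot, 8.11% in all.

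**Figure D4:**
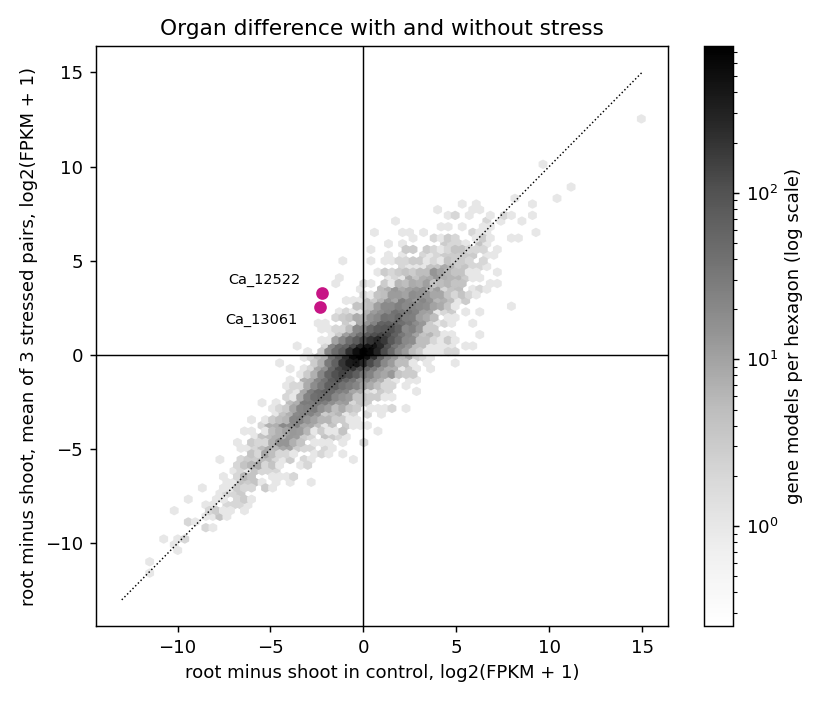
Organ difference (root minus shoot) in the controls on the horizontal axis and as the mean of the 3 stressed pairs on the vertical axis, both on the log2(FPKM + 1) scale, for 16647 gene models. The dotted line marks equal differences; most gene models lie along it, and Ca_13061 and Ca_12522 lie at about -2 in the controls and above 2 in the stressed pairs.

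The larger the control difference, the more often it was found again, and from 4-fold up the share was higher for shoot than for root. Of the members 2-fold to 4-fold higher in control, limma called 42.7% of the 1855 root members and 42.8% of the 1824 shoot members in the same direction. Between 4-fold and 8-fold the shares were 68.4% of 721 in root and 85.5% of 676 in shoot. Between 8-fold and 16-fold they were 85.3% of 353 and 96.1% of 361, and from 16-fold up they were 92.5% of 322 and 99.2% of 389. At least 2-fold in the same direction in every one of the 3 stressed pairs were 1411 (43.4%) of the root members and 1709 (52.6%) of the shoot members. Over all 16647 gene models, 1609 (9.67%) were at least 2-fold higher in root in all 3 stressed pairs and 1905 (11.4%) in shoot. A pseudocount of 5 left 874 of the 1411 root members.

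**Figure D5:**
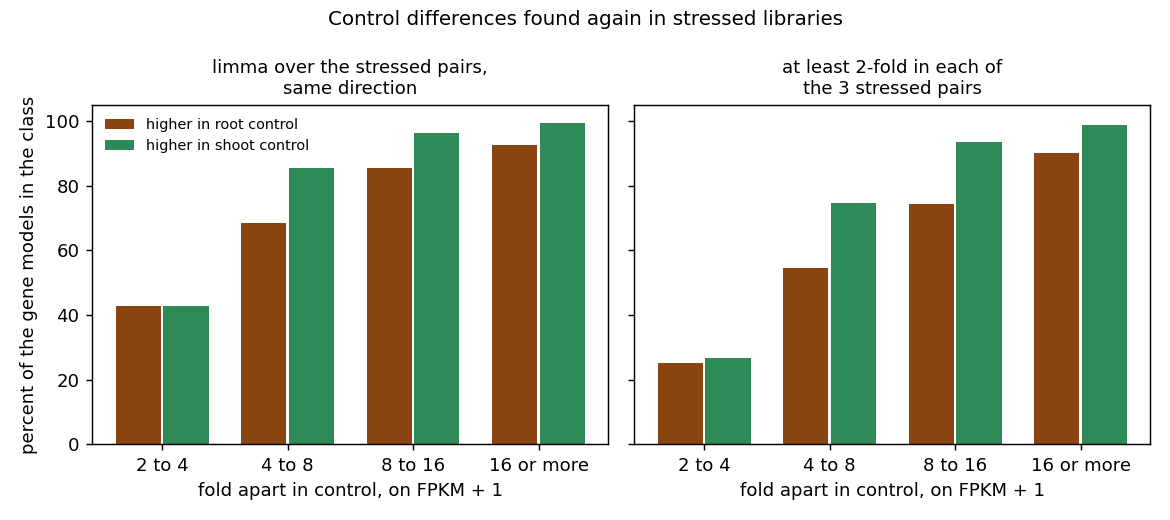
Share of gene models, in percent, that were found again in the stressed libraries, by the size of their control difference on FPKM + 1. Left bars count a limma call in the same direction and right bars a difference of at least 2-fold in each of the 3 stressed pairs; from 4-fold up the shares are higher for gene models higher in shoot control than for those higher in root control.

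Abundant root and shoot gene models parted most in this respect. Among members whose higher control value was above 500 FPKM, limma called 91 of the 96 higher in shoot control (94.8%) and 42 of the 79 higher in root control (53.2%). Below 10 FPKM the order was the other way. The shares were 51.0% in root and 43.2% in shoot between 1 and 2 FPKM, 60.5% and 45.9% between 2 and 5 FPKM, and 64.8% and 44.9% between 5 and 10 FPKM. The stressed root libraries lay farther apart than the stressed shoot libraries. Over all members the median SD of log2(FPKM + 1) was 0.35 over the 3 stressed roots and 0.29 over the 3 stressed shoots. For the members higher in root control it was 0.55 over the stressed roots and 0.33 over the stressed shoots, and for the members higher in shoot control it was 0.30 and 0.34. Above 500 FPKM it was 0.58 and 0.57 for the members higher in root control, and 0.42 and 0.26 for those higher in shoot control. The part of this spread in the difference between root and shoot members was not tested.

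A minority of the control differences was below 2-fold in size under every stress, which does not mean that no difference was left. The sign was kept more often than the size. Of the members higher in root control, 87.4% were higher in root by any amount under desiccation, 89.9% under salinity and 93.3% under cold. Of those higher in shoot control, 84.5%, 91.5% and 94.9% were higher in shoot in the same order. Over all members the median difference was 0.08, 0 and 0.03 in that order. Under 2-fold in all 3 stressed pairs were 442 (13.6%) of the members higher in root control and 457 (14.1%) of those higher in shoot control. Over all members, 38.1% were at least 2-fold apart under desiccation, 37.2% under salinity and 36.2% under cold. The share of all members under 2-fold in all 3 stressed pairs was not counted. Conversely, of the 10146 members within 2-fold in the controls, 192 were at least 2-fold higher in root in all 3 stressed pairs. Another 187 were at least 2-fold higher in shoot in all 3. Of all 16647 members, 1609 (9.67%) were at least 2-fold higher in root in all 3 and 1905 (11.4%) in shoot. A full turn was rare. Of the members higher in root control 9 were at least 2-fold higher in shoot in all 3 stressed pairs, and of those higher in shoot control 6 were at least 2-fold higher in root in all 3. From a control difference of at least 4-fold, 0 turned in the first direction and 2 in the second.

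These 2 gene models were Ca_13061 and Ca_12522, and in both the root value was the one that differed most from the control. Ca_13061 had 0.716 FPKM in control root, and its root values were 43.8, 55.6 and 10.4 FPKM under desiccation, salinity and cold. In shoot it stood at 7.81, 5.78, 3.04 and 4.57 FPKM in control, desiccation, salinity and cold. Its difference was -2.36 in the controls and 2.52 over the stressed pairs (SE 0.54). With a pseudocount of 5 the control difference was -1.16, no longer 4-fold. Ca_12522, named because it was the only other such gene model, had 3.13 FPKM in control root, and 198, 53.1 and 368 FPKM in the stressed roots in that order. In shoot it stood at 18.4, 7.07, 6.49 and 71.5 FPKM, so cold shoot was above the shoot control and the other stressed shoots were below it. Its difference was -2.23 in the controls and 3.28 over the stressed pairs (SE 0.48). Both gene models were picked for their turn, so these values are a description with no test.

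Whether the organ difference in control differed from that under stress was tested in 1 further limma fit to all 8 libraries. Its loci were again those with at least 1 FPKM in either control library, and here the controls are part of the fit. Loci under 1 FPKM in both controls, 10601 annotated ones among them, were not tested. No locus (0 of 22279, 0%) passed an adjusted p of 0.05, and 1218 (5.47%) had an unadjusted p under 0.05. For Ca_13061 the control difference minus the stressed mean was -4.88 (SE 1.08) on the log2 scale, and for Ca_12522 it was -5.51 (SE 0.95). No p is given for either, because both were picked for their turn. With 1 control pair the fit can single out large departures at most, and with a pseudocount of 0.1 it called 5 loci.

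By an estimate from the smallest values, the root control was the shallowest library. The most frequent ratio of these values put the shoot control at 1.30 times the depth of the root control, and the stressed libraries at 1.21 to 1.31 times. That ratio held for 13.7% (shoot cold) to 19.7% (shoot desiccation) of the weakly expressed loci compared, so the depths are rough. At 443 of 566 weakly expressed loci the values were whole multiples of the smallest step within 5%. If that step is 1 fragment, 1 FPKM stood for a median of 21.6 fragments in the root control at those loci. At the depth estimated for the shoot control this becomes 28.1 fragments, which restates the rough depth ratio of 1.30. Annotated gene models made up 45.9% of the summed FPKM of the root control and 23.8% of the shoot control, the rest lying on unannotated loci. The annotated sums themselves were close, 672970 in root and 652296 in shoot.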

How the data were processed

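Per the labels and design text, the authors ran NGS QC Toolkit on the reads, aligned with TopHat to the annotated chickpea genome and took FPKM per gene from Cufflinks. No source used here gives versions, genome build or annotation release. The deposited FPKM values, 1 file per library, were used as they stand. FPKM divides by the library's total, so very abundant loci lower all others, and an exact 0 can be a failed estimate.

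Gene models are loci whose ID does not start with XLOC. The set compared needs FPKM of at least 1 in either control library. Differences are log2(FPKM + 1) in root minus shoot, and a difference of at least 1 (2-fold) was called, without a p-value. Of the 16647 members, 701 hold several IDs or an ID found on more than 1 locus, so their reads may be split or merged. The organ difference in the 6 stressed libraries was tested in R 4.3.3 with limma 3.58.1 (treatment and organ as terms, trended empirical Bayes, 2 residual degrees of freedom). Adjusted p-values are two-sided Benjamini-Hochberg values over all 22279 loci fitted, with a threshold of 0.05. A second limma fit to all 8 libraries added an organ term for control alone, and was chosen after the values were seen. Named gene models were the 2 with the largest control difference in each direction, with 1 ID on 1 locus and the same sign in all stressed pairs. To these was added, in each direction where there was any, the 1 with the largest control difference of at least 4-fold that turned by at least 2-fold in all 3 stressed pairs. The members and rules were chosen with earlier results of these data known. The gene lists drawn up for photosynthesis, nutrient uptake and other functions were not used, because the IDs carry no names. Relative depth came from the most frequent ratio of values under 0.3 FPKM. The calls and fits were tested on simulated data. Tables were made with pandas 2.3.3 and numpy 2.4.6 in Python 3.11.15, correlations with scipy 1.17.1, and figures with matplotlib 3.10.9.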

Additional observations from a re-analysis of the deposited data

Results flagged for a closer look

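Among gene models at least 4-fold apart in the control pair, 2 had the opposite sign, at a size of at least 2-fold, in every stressed pair. For Ca_13061 root minus shoot was -2.36 in the controls and 2.72, 3.81 and 1.04 under desiccation, salinity and cold. For Ca_12522 it was -2.23 in the controls and 4.63, 2.85 and 2.35 in the same order. No p is given for the difference between control and stressed pairs, because the 2 gene models were picked for their turn. Both rest on 1 root control library, in which Ca_13061 stood at 0.716 FPKM and Ca_12522 at 3.13 FPKM.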

How the results depend on the processing

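No replicates could be paired, because there is 1 library for each organ and treatment. The only pairing is the match of root and shoot by treatment that the limma fit holds. Without its treatment term limma called 2425 gene models higher in root and 2616 higher in shoot. Of 61 recomputed counts, 52 stayed within 1.5 times the reported value. A 4-fold threshold left 1396 gene models higher in root control and 1426 in shoot control, and a pseudocount of 5 left 2071 higher in shoot control and 874 higher in root in the control and all 3 stressed pairs. Requiring 10 FPKM left 314 gene models restricted to root and 313 restricted to shoot, and a limit of 0.5 FPKM left 350 and 309. Without the cold libraries limma called 1387 gene models higher in root and 1634 higher in shoot. With a pseudocount of 0.1 limma called 5 loci whose control and stressed organ differences differed, against 0; this setting was chosen after seeing the data. The thresholds and the left-out pair lower counts by construction. Dropping the filter of 1 FPKM cannot change the 2-fold counts of the controls, because a 2-fold difference on FPKM + 1 needs at least 1 FPKM in the higher library. Those unchanged counts are among the 52 by construction. The cause of the moves with the pseudocount was not tested. The control differences of Ca_18235, Ca_19093, Ca_21523, Ca_06719 and Ca_13061 kept their sign under each pseudocount and under rescaling, but not their size. That of Ca_18235 was 16.83 with a pseudocount of 0.1 and 12.88 with 5, that of Ca_19093 14.01 and 9.05, that of Ca_06719 -13.75 and -9.11, and that of Ca_13061 -3.28 and -1.16. The fragments behind a value near 1 FPKM are known for weakly expressed loci alone.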

Other observations

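Gene models with high ID numbers were common among the most abundant ones. Of the 15946 members with a single ID on 1 locus, 857 (5.37%) had an ID number above 20000. They made up 39 of the 100 highest in the root control and 35 of the 100 highest in the shoot control. Their median was 10.3 FPKM in root and 13.7 FPKM in shoot, against 12.1 and 12.3 FPKM for the other members. Among them 17.6% were at least 2-fold higher in root control and 23.2% in shoot control, against 19.8% and 19.4% of the others. The number above which IDs were counted as high was set after the values were seen.

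Gene models with neighbouring ID numbers leaned to the same organ when both differed strongly. Among 12561 pairs of consecutive numbers, both members were at least 2-fold apart in 2008, and 1117 of these (55.6%) had the same direction. At 4-fold the same direction was found in 244 of 410 pairs (59.5%), and at 16-fold in 33 of 46 (71.7%). Of the 448 loci that carry several IDs, 428 carry consecutive ones, so consecutive numbers can stand for neighbours on the genome.

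Unannotated loci differed more often between the controls and leaned to the shoot. Of the 5632 with at least 1 FPKM in either control, 1072 (19.0%) were at least 2-fold higher in root and 1682 (29.9%) in shoot, with a median difference of -0.22.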
